A study of Glycine max with 63 samples.

Results

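Soybean embryos of a transgenic line whose tables are named G were compared with embryos of the parent cultivar, named Wt, at the greenhouse time named T2. The libraries were chosen by the names of their count tables: 3 libraries named G T2 and 3 named Wt T2, which is 6 of the 63 libraries of the series and 6 of its 36 greenhouse libraries. WRINKLED1 (WRI1) is a plant transcription factor that turns on genes of late glycolysis and fatty acid synthesis in filling seeds. Diacylglycerol acyltransferase (DGAT) adds the last fatty acid to make triacylglycerol, the storage oil. Soybean embryos lay down oil and storage protein in the cotyledons during the seed filling period.

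The lines carry Arabidopsis transgenes, listed in the tables as AtWRI1 and AtDGAT, in the background of the cultivar Thorne (WT). The protocols call the field plants homozygous. Greenhouse libraries were each made from 1 immature embryo, and 3 plants per genotype and time served as replicates. The sample titles and the table names disagree. The 3 libraries named Wt T2 are titled WT at 24 days after pollination (DAP), whereas the 3 named G T2 are titled WD-1 at 27 DAP. By title the comparison therefore joins a difference of genotype to one of 3 days, and by name both groups share a time; which of these holds cannot be told apart here. The names do not say whether G is WD-1 or WD-2. The labels used here do not give the promoter that drives each transgene.

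The transgene reads followed the table names in all but 1 library, and not the titles. Of the 12 libraries named Wt, none held more than 7 AtWRI1 counts or 2 AtDGAT counts. Of the 24 named G or R, the second transgenic name, 23 held 351 to 7129 AtWRI1 counts and 1, G T5 replicate 2, held 0 of both. By title, 6 of 12 WT libraries held over 100 AtWRI1 counts, and 7 of 24 titled WD-1 or WD-2 held under 10.

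A stretch of 145 consecutive identifiers, GLYMA_13G203300 to GLYMA_13G217700, splits the libraries named G. Its limits were set on field WD-1. Over its 66 genes with a mean log2 CPM above 2, the median log2 difference from the mean of the Wt libraries was -0.07 to 0.15 in the 12 Wt libraries and 0.85 to 1.07 in the 12 R libraries. It was 0.91 to 1.06 in the 6 libraries of G T2 and G T4, and -0.06 to 0.12 in the 6 of G T3 and G T5. The G libraries of T2 and T4 thus stood with R in these genes, and those of T3 and T5 stood with Wt. A contrast of T2 with later times may therefore set unlike plants side by side, which cannot be told apart from a change with time.

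The 6 libraries held 16.3 to 20.1 M estimated counts (1 M is 1000000), against 3.02 to 23.6 M over the greenhouse, where 5 other libraries were under 10 M. A gene with 0 counts could have up to 3, or 0.149 to 0.184 counts per 1 M (CPM), which covers counting error only. Levels below are CPM scaled by TMM, a factor that corrects for library composition. The identifiers matched 0 of the 59048 genes of the reference table, so no gene below has a name or a stated role, and the labelled tissue could not be checked against its markers. In bulk RNA, fewer cells of a type and less RNA per cell cannot be told apart.

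AtWRI1 was read at 153, 181 and 109 CPM in the 3 G T2 libraries and at 0.052, 0.0313 and 0 in Wt T2. Those are 5391, 5525 and 4470 counts against 1, 1 and 0. The pooled ratio on the TMM scale was 5850 (exact 95% counting interval 1620 to 48300), and edgeR's quasi-likelihood test gave a difference of 12.21 in log2 (SE 1.19; adjusted p = 3.86e-09). All G T2 libraries lay far above all Wt T2 libraries. Transgene reads were among the grounds for grouping by table name, so the tests of both transgenes against Wt T2 are a description. AtDGAT had 0 counts in every Wt T2 library and 767, 744 and 504 counts in G T2, or 21.7, 24.4 and 12.3 CPM. It was at least 511-fold higher on the TMM scale, taking 3 counts over the Wt group as the floor (adjusted p = 8.94e-08). G T2 replicate 3 had the lowest level of both transgenes among the 3. Between G T2 and R T2 the comparison rests on the scaling. With TMM the log2 difference was 0.05 for AtWRI1 (SE 0.59, adjusted p = 0.982; -0.12 without G T2 replicate 2) and -0.29 for AtDGAT (SE 0.49, adjusted p = 0.784). With total counts alone both were higher in G T2, by 1.72 and 1.43 (adjusted p = 0.0203 and 0.0303), where the median of all genes was itself 1.83 higher.

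**Figure D1:**
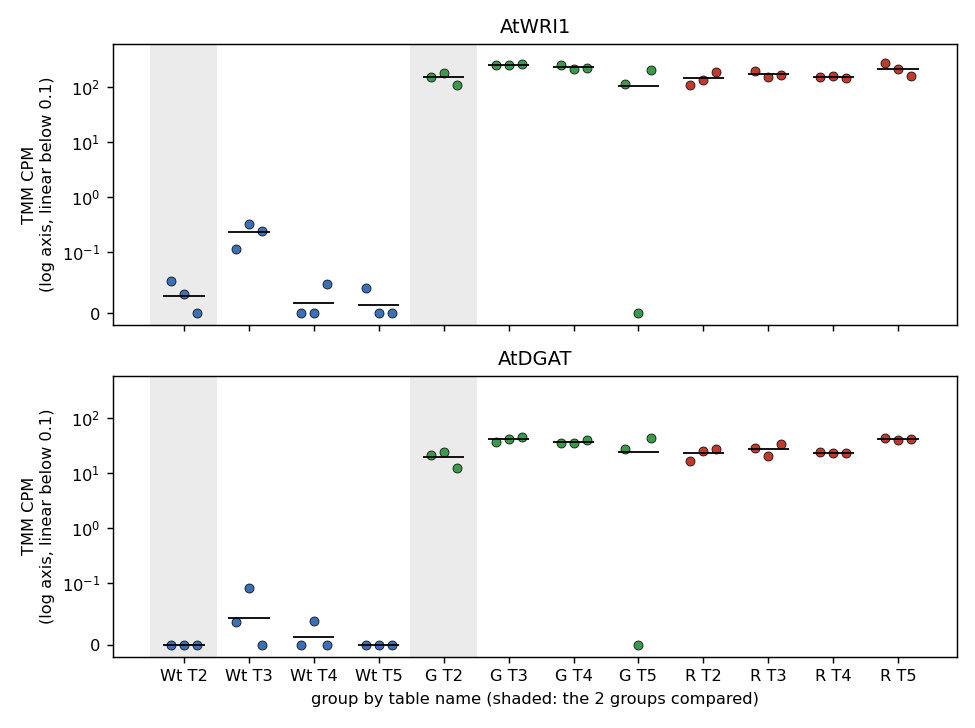
AtWRI1 and AtDGAT in TMM CPM on a log axis (linear below 0.1) for the 36 greenhouse libraries by table name; points are libraries and black lines are means of 3. The 3 G T2 libraries sit at 109 to 181 CPM for AtWRI1, and G T5 replicate 2 is the only G library at 0.

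Across the 34548 genes tested, 3503 (10.1%) passed an adjusted p of 0.05 between G T2 and Wt T2. Of these 1977 were higher in G T2 (5.72% of genes tested, both transgenes included) and 1526 were lower (4.42%). Most changes were modest: the median log2 fold change was 0.94 among higher genes and -0.90 among lower genes. Fitted changes over 8-fold were more often rises, with 146 higher genes against 44 lower. The libraries of the groups did not overlap in 12507 of the genes tested (36.2%), including 1919 of the higher and 1505 of the lower genes.

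The share called varied with the level of the gene. Among 7373 genes under 1 CPM, 3.54% were higher and 2.86% lower, and among 7968 genes of 10 to 100 CPM the shares were 7.18% and 5.66%. Above 100 CPM the order turned, with 17 of 415 genes higher and 36 lower and a median log2 fold change of -0.17, against -0.01 over all genes. The most abundant transcripts also took less of each G T2 library. The 10 most abundant genes held 26.2%, 26.9% and 19.1% of counts in G T2, and 42.8%, 28.5% and 27.9% in Wt T2, so the groups did not overlap. Wt T2 replicate 1 was the highest of the 6.

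These counts moved with the settings. With libraries scaled by total counts alone 919 genes were called, 781 higher and 138 lower, so that 85% of calls were rises against 56.4% with TMM, and a fit of the 6 libraries alone called 5984. Leaving out G T2 replicate 2 or Wt T2 replicate 2 gave 2230 or 2236 genes; rises went down to 1290 without Wt T2 replicate 2, and falls to 859, 900, 965, 946 and 1010 without G T2 replicate 1, G T2 replicate 2, Wt T2 replicate 1, Wt T2 replicate 2 and Wt T2 replicate 3.

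**Figure D2:**
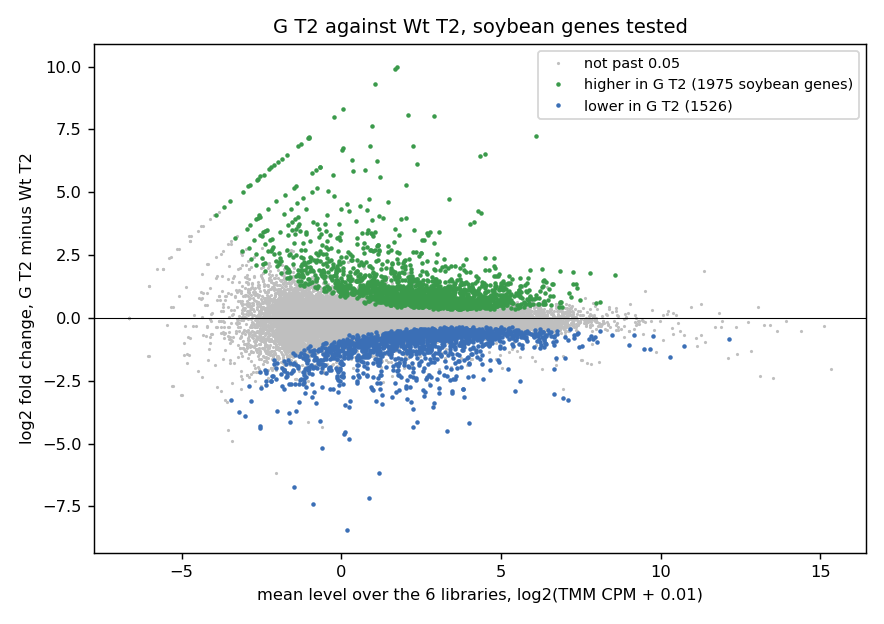
Log2 fold change (G T2 minus Wt T2) against mean level over the 6 libraries, log2(TMM CPM + 0.01), for each soybean gene tested; green and blue points passed an adjusted p of 0.05. Rises reach larger fold changes than falls, and at the highest levels more of the called genes are lower in G T2.

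The largest rises were from no detected transcript. GLYMA_09G074000 had 0 counts in each of the 12 Wt greenhouse libraries and was at 8.22, 8.19 and 3.57 CPM in G T2, at least 174-fold higher (adjusted p = 1.61e-09). GLYMA_13G342600 had 0 counts in Wt T2 and was at 7.6, 8.25 and 3.21 CPM in G T2, at least 165-fold higher (adjusted p = 3.9e-09). For both, G T2 replicate 3 was the lowest of the 3, as it was for the transgenes. GLYMA_08G003100 and GLYMA_11G124400 were named from the rises of field WD-1 seeds over field WT, among genes with at least 5 CPM in the higher group. Their log2 fold changes there were 4.66 and 5.92, and that of GLYMA_09G074000 was 6.00. GLYMA_08G003100 stood at 0.364, 0.564 and 0.401 CPM in Wt T2 and at 47.5, 46 and 28.3 in G T2, a difference of 6.46 in log2 (SE 0.31; adjusted p = 3.01e-16). GLYMA_11G124400 was at 0, 0 and 0.0668 CPM in Wt T2 and at 10.4, 12 and 2.79 in G T2. It was also called (adjusted p = 1.78e-09).

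In all, 25 soybean genes, 3 of those above included, were off in Wt T2, with at most 3 counts over the 3 libraries, and on in every G T2 library at 1 CPM of all counts or more. Their G T2 means ran from 1.16 to 14.98 CPM of all counts. Since the choice used this contrast, that all 25 passed the threshold is a description. At the other Wt times all 25 stayed under 1 CPM on the group mean. At T3, T4 and T5, 24, 25 and 24 of them were higher in G, beside 12%, 14.8% and 16.7% of all genes tested. In field seeds at stage R6, 21 reached a mean of 0.5 CPM in WD-1 and 17 in W-1, the line with AtWRI1 reads and no AtDGAT reads, while 24 were under 0.5 CPM in field WT. The field WT libraries at R6 held 2.51, 1.17 and 27.2 M counts, where 3 counts are 1.19, 2.56 and 0.11 CPM. Low values in field WT therefore rest mainly on replicate 3. The field WD-1 libraries at R6 held 2.7, 24.2 and 3.0 M counts, and field W-1 replicate 3 held 2.8 M. Means near 0.5 CPM in these lines can rest on few counts too. The share of all genes past 0.5 CPM was not computed.

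**Figure D3:**
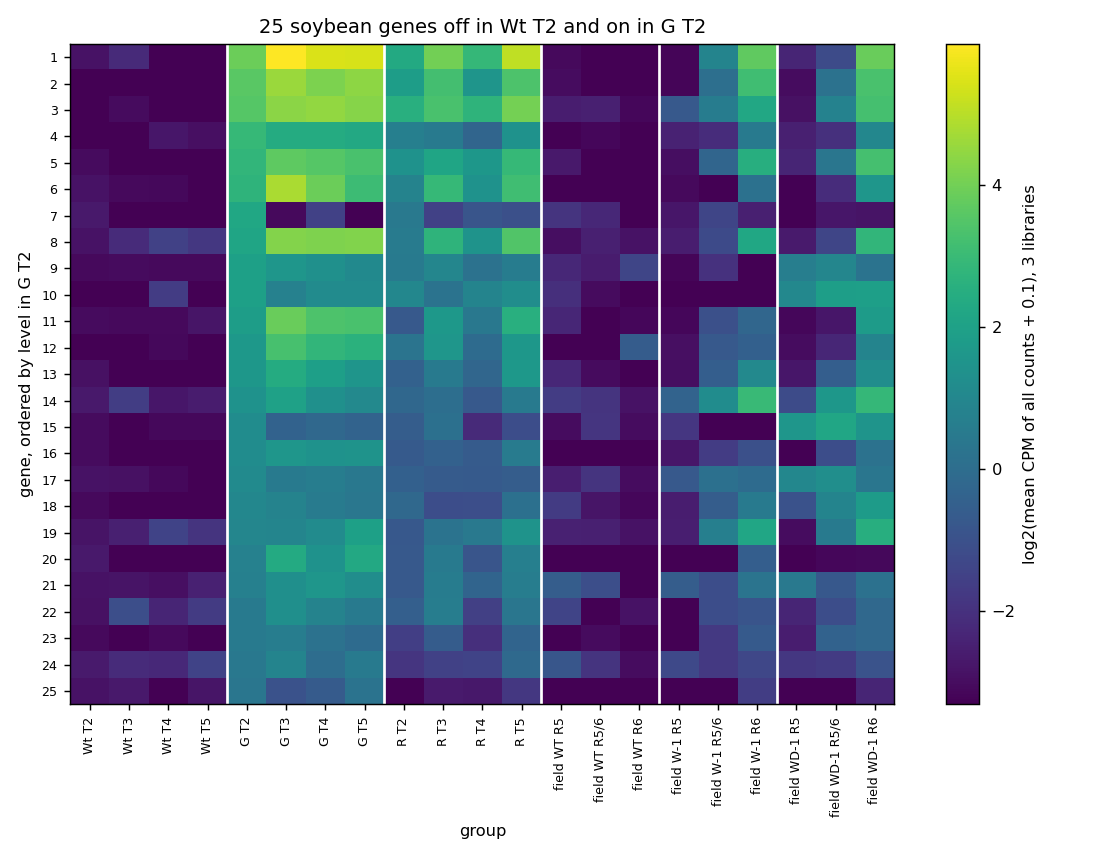
Mean level, log2(CPM of all counts + 0.1) over 3 libraries, of the 25 soybean genes off in Wt T2 and on in G T2, one row per gene ordered by G T2 level, across the 12 greenhouse and 9 field groups. The 4 Wt columns stay dark, the other G and R columns are mostly lit, and the field lines light up towards R6 where field WT does not.

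Only 3 soybean genes went the other way by the same rule, and 2 of them carry neighbouring identifiers. GLYMA_15G228600 held 62, 113 and 123 counts in Wt T2 (3.22, 3.54 and 4.11 CPM) and 0, 1 and 1 in G T2. The pooled ratio on the TMM scale was 196 in favour of Wt (exact 95% counting interval 53.8 to 1630; adjusted p = 1.66e-12). GLYMA_15G228700 held 37, 89 and 59 counts in Wt T2 and 0 in G T2, at least 81.1-fold lower (adjusted p = 3.44e-08). Both stayed near 0 in G T3, T4 and T5 and in field WD-1, while field W-1 kept levels like those of field WT. The R libraries lacked them too. GLYMA_15G228700 had 0 counts at each R time, and GLYMA_15G228600 had 4, 1, 5 and 2 counts in R T2, T3, T4 and T5. Both were known from earlier results on these data. The third, GLYMA_07G117100, chosen after its values were seen, was at 1.35, 1.32 and 1.1 CPM in Wt T2 and at 0, 0.0328 and 0.049 in G T2 (log2 fold change -5.18, SE 0.60, adjusted p = 1.85e-07). Its levels split the G libraries as the stretch on chromosome 13 did, with 0.66 to 0.81 CPM in G T3 and 2.14 to 2.77 in G T5 against at most 0.0769 in G T4. The field lines did not show this parallel. Field W-1, where the stretch had a median log2 fold change of 0.00, held 0 counts of the gene at R5, R5/6 and R6. Field WD-1 held 4, 1 and 1 counts, and field WT 62, 16 and 21.

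The largest falls in genes with at least 5 CPM were of another kind. GLYMA_20G068000 was at 20.3, 20.8 and 16.2 CPM in Wt T2 and at 1.02, 0.852 and 0.661 in G T2, a difference of -4.50 in log2 (SE 0.53; adjusted p = 1.49e-07). GLYMA_17G187300 went from 8.94, 10.8 and 7.35 CPM to 0.68, 0.393 and 0.245, a difference of -4.36 in log2 (SE 0.48; adjusted p = 4.4e-08). The 3 G T2 libraries were low together in both. On the TMM scale R T2 was low as well, with means of 0.811 and 0.442 CPM beside 0.844 and 0.439 in G T2. Neither was called between field WD-1 and field WT over the 3 seed stages, with log2 fold changes of -0.55 and 0.08 (adjusted p = 0.344 and 0.988). At R6 field W-1 differed from field WT by 0.85 and 3.68 (adjusted p = 0.358 and 0.000226), so GLYMA_17G187300 was higher there.

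The stretch GLYMA_13G203300 to GLYMA_13G217700 stood above the genes on either side of it in G T2. Of its 145 identifiers 114 were tested. In G T2 against Wt T2, 85 of the 114 (74.6%) were higher and 1 was lower, beside 5.72% and 4.42% of all genes tested. The median log2 fold change was 0.99 (quartiles 0.76 and 1.32) and 109 of the 114 were above 0. The 100 tested genes beside it had a median of -0.01, with 8 higher and 6 lower. Between G T2 and R T2 the median log2 difference was 0.08, with 6 of the 114 higher and 2 lower in G T2, beside 4.76% and 4.03% of all genes tested (median 0.04). Field WD-1 had a median of 1.03 and field W-1 of 0.00. With total-count scaling 52 of the 114 were called higher. Without the stretch 3417 of the 3503 called genes were left, 1892 higher and 1525 lower.

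**Figure D4:**
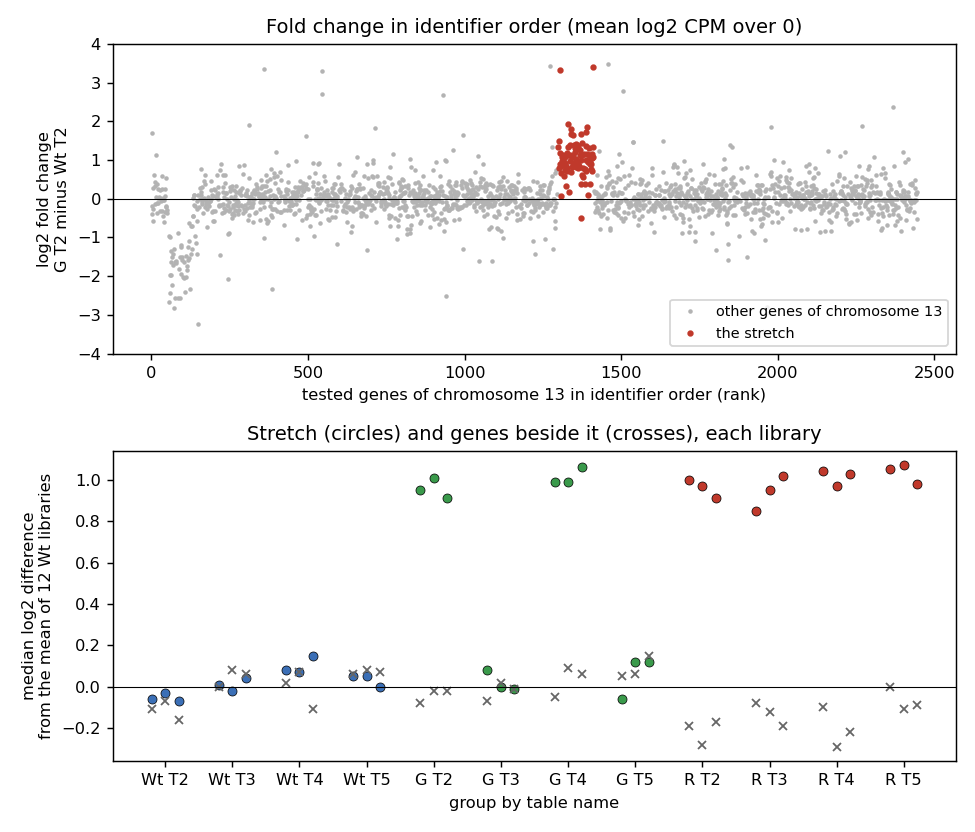
Top, log2 fold change (G T2 minus Wt T2) of tested chromosome 13 genes with mean log2 CPM over 0, in identifier order, with the stretch in red; genes outside -4 to 4 are not drawn. Bottom, the median log2 difference of stretch genes (circles) and of genes beside it (crosses) from the mean of the 12 Wt libraries, where the stretch sits at 0.91 to 1.06 in G T2 and G T4 and at -0.06 to 0.12 in G T3 and G T5.

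Field seeds gave a comparison with no library in common. Of 814 genes higher in field WD-1 than in field WT over the 3 seed stages R5, R5/6 and R6 and tested in both fits, 656 (80.6%) were higher in G T2 and 1 was lower, beside 5.72% and 4.41% of the 34223 genes tested in both. Those 656 were 33.5% of the genes higher in G T2. Of 344 genes lower in field WD-1, 196 (57%) were lower in G T2 and none was higher in edgeR's test, and they were 13% of the genes lower in G T2. Outside the stretch the shares were 579 of 731 (79.2%) and 196 of 344. With total-count scaling these counts were 393 of 814 and 26 of 344, beside 2.26% and 0.399% of all genes tested with that scaling. The shares for field W-1 were 552 of 753 higher (73.3%) and 49 of 211 lower (23.2%).

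The genes lower in G T2 were also often genes that rise as seeds mature. In field WT, 5673 of the genes tested in both fits (16.6%) rose from R5 to R6, and 34.4% of the genes lower in G T2 were among them. Of the genes higher in G T2, 25.6% fell from R5 to R6 in field WT, beside 18.2% of all genes tested in both. Of the 5673 genes that rose, 9.17% were lower in G T2 and 4.39% higher, beside 4.41% and 5.72% of all genes tested in both. By title G T2 was the later group, taken 3 days after Wt T2, and by name both share a time. The field classes share no library with the greenhouse comparison. The stage of the embryos and the line cannot be told apart here, and the cause was not tested.

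GLYMA_01G081900, known from earlier results, shows a log2 difference from Wt that grew after T2 while its Wt level fell. It was at 2.44, 2.26 and 2.34 CPM in Wt T2 and at 33.6, 33.1 and 32 in G T2, a difference of 3.81 in log2 (SE 0.20; adjusted p = 3.57e-15). Replicates within each group nearly coincided. In Wt it fell to 0.0809 to 0.116 CPM at T5 while G T5 held 17.7 to 32.6. R T2 held 48.8 to 54. The log2 difference of G T2 from R T2 was -0.63 with TMM (SE 0.17, adjusted p = 0.0179; 0.0584 and 0.0545 without G T2 replicates 2 and 3), but 1.19, higher in G T2, with total counts alone (adjusted p = 0.00188).

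At later times G differed from Wt in more genes. At T3 4159 genes were higher (12%) and 3185 lower (9.22%), at T4 5123 (14.8%) and 4431 (12.8%), and at T5 5779 (16.7%) and 5462 (15.8%). Each time has its own Wt libraries, so these lists share no library with T2. Of the 1975 soybean genes higher at T2, 73.2%, 73.3% and 67.3% were higher at T3, T4 and T5, and these made up 34.8%, 28.3% and 23% of the later lists. Of the 1526 lower genes, 57.1%, 55.2% and 63.2% were lower at T3, T4 and T5, or 27.3%, 19% and 17.7% of the later lists. At all 4 times 1123 genes were higher and 520 lower, and opposite calls were few, from 9 to 140 genes per time and direction. No later call in the same direction was made for 295 higher and 256 lower genes.

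The difference between the G effect at T2 and its mean over T3 to T5, tested itself, passed the threshold in 1969 genes (5.7%), 743 with a more positive and 1226 with a more negative effect at T2. Against T4 alone, whose G libraries carry the raised stretch as T2's do, it passed in 2537 genes (7.34%). Leaving out G T2 replicate 2, Wt T2 replicate 1 or Wt T2 replicate 2 gave 1288, 1296 or 1226 genes, and scaling by total counts 266.

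GLYMA_04G124100 had the most negative difference, -6.80 on the log2 scale (SE 0.52, adjusted p = 2.53e-10). In Wt it was at 28.5, 41.8 and 55.8 CPM at T2, at most 1.71 at T3 and at most 0.141 at T4. In G it was at 92.9, 92.5 and 173 CPM at T2 and still at 86.6 to 105 at T4. The gene was thus already higher in G at T2 (log2 fold change 1.5, SE 0.32, adjusted p = 0.00124), and lasted in G after it was gone from Wt. GLYMA_11G060500 fell instead at T2, from 8.84, 12.5 and 8.22 CPM in Wt to 0.595, 0.622 and 0.465 in G, and its difference from later times was -5.39 (SE 0.59, adjusted p = 1.73e-07). GLYMA_17G187300 followed it, with a difference of -4.71 (SE 0.55, adjusted p = 3.73e-07); its Wt level was down to 0.733 to 1.74 CPM at T3.

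The most positive differences were smaller. GLYMA_19G091800 was at 2.39, 2.22 and 2.97 CPM in Wt T2 and at 5.36, 4.09 and 8.67 in G T2 (log2 fold change 1.26, SE 0.35, adjusted p = 0.0182), and had 0 counts in all G T5 libraries. Wt was low by then as well, with 36 counts at T4 and 16 at T5, beside 13 in G T4. The gene's difference from later times was 3.25 (SE 0.68, adjusted p = 0.00232), which rests partly on these low counts. Its call at T2 was lost without G T2 replicate 3, Wt T2 replicate 1 or Wt T2 replicate 2 (adjusted p = 0.161, 0.0714 and 0.0982). GLYMA_12G060700 was at 2.7, 2.26 and 2.57 CPM in Wt T2 and at 4.59, 8.12 and 7.12 in G T2, with a log2 fold change of 1.40 that missed the threshold (adjusted p = 0.0806). Its difference from later times was 2.41 (SE 0.61, adjusted p = 0.0133), and was lost without Wt T2 replicate 2 (adjusted p = 0.0537).

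GLYMA_15G007300, a large fall in field WD-1, did not pass the threshold at T2. It was at 3.07, 2.26 and 2.34 CPM in Wt T2 and at 1.7, 2.16 and 0.49 in G T2, a difference of -0.83 in log2 (SE 0.42; adjusted p = 0.238), and the G T2 libraries lay below all Wt T2 libraries. In Wt it rose to 75.3 to 78.6 CPM at T4, when G was at 3.46 to 5.33. The difference of the T2 effect from later times was 1.93 (SE 0.47, adjusted p = 0.00999), lost without G T2 replicate 2 (1.53, adjusted p = 0.105).

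**Figure D5:**
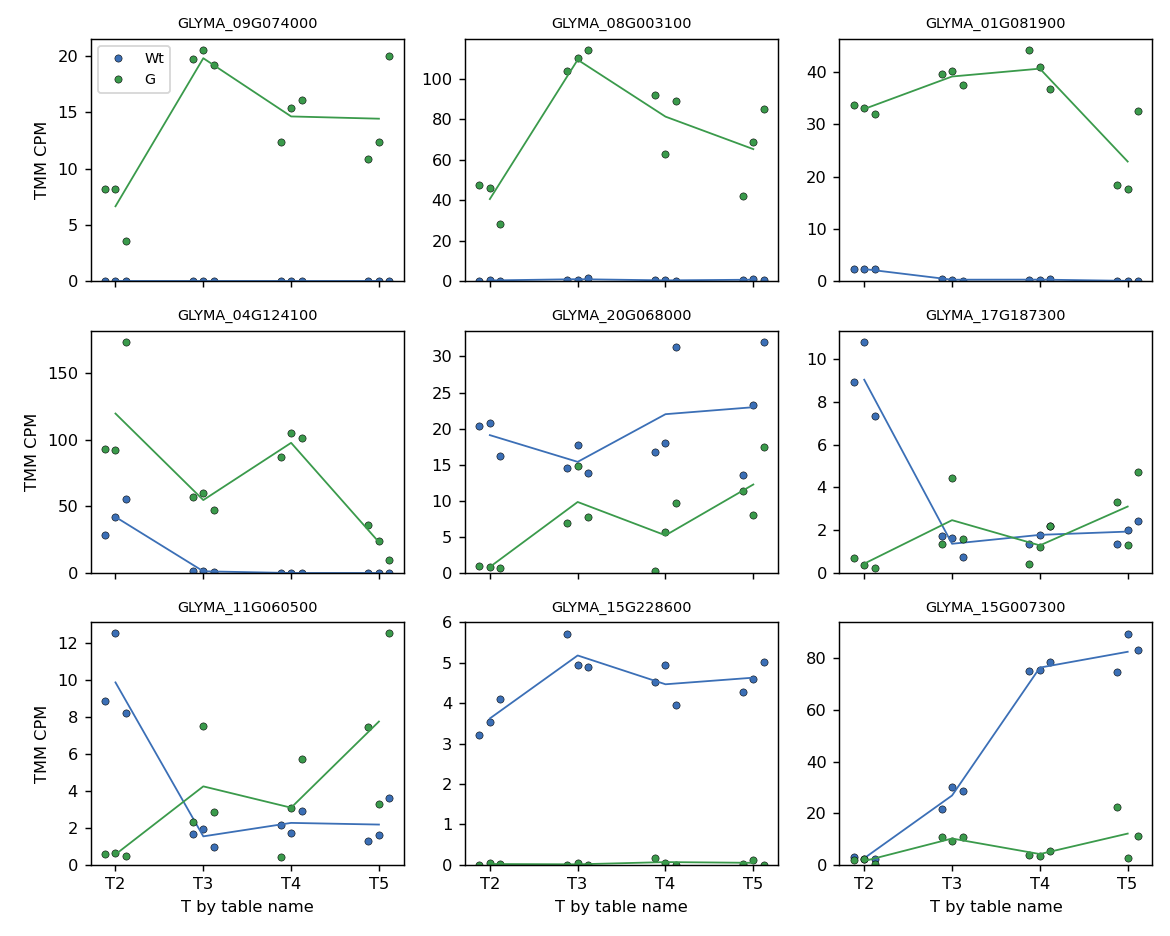
TMM CPM of 9 genes in the Wt and G libraries by table name from T2 to T5; points are libraries and lines join means of 3. GLYMA_04G124100 and GLYMA_01G081900 drop to near 0 in Wt and persist in G, and GLYMA_15G007300 climbs in Wt from T3 on.

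G T2 differed from R T2, the other transgenic name at T2, in 3039 genes (8.8%), 1645 higher and 1394 lower, with no Wt library in the contrast. With total counts alone the count was 32623, 32383 higher and 240 lower, and without G T2 replicate 2 or replicate 3 it was 1799 or 1961. GLYMA_13G021200, chosen after its values were seen, was among the most abundant transcripts. It took 3.18%, 2.79% and 3.17% of counts in G T2, 39.9%, 39% and 27.9% in R T2, and 16.6%, 4.8% and 5.16% in Wt T2. The log2 difference of G T2 from R T2 was -5.62 (SE 1.05, adjusted p = 0.000521), whereas G T2 against Wt T2 gave -2.02 (SE 0.89, adjusted p = 0.159), with Wt T2 replicate 1 apart from the other two, and -0.86 without that library (adjusted p = 0.688).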

How the data were processed

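Immature greenhouse embryos of soybean were sequenced as RNA, and the authors deposited 1 table of estimated counts per library with 55897 soybean identifiers and 2 transgenes. Per the submitters' processing notes, the tools were kallisto 0.43.1, R 3.6.3, FastQC 0.11.5 and sleuth 0.30.0, listed with no role. Build and annotation: not given in the sources used here. kallisto divides reads among similar transcripts, so near-identical gene copies share counts. Estimated counts were rounded to whole numbers.

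Groups were taken from the table names, since transgene reads contradict the titles. The members, lists and tests were chosen with earlier results of these data known. One edgeR 4.0.16 model (R 4.3.3) held all 36 greenhouse libraries in 12 groups, with filterByExpr, TMM scaling and the 2-sided quasi-likelihood F-test, adjusted by Benjamini-Hochberg over 34548 genes at 0.05. The biological coefficient of variation was 0.168. Adjusted p-values are from this test in this model, except where another scaling, filter or set of libraries is named with them. Field lists and field adjusted p-values came from the same test in the 27 field libraries (38914 genes). SE is the log2 fold change divided by the root of F.

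Named genes were the largest 2 rises and 2 falls per comparison with at least 5 CPM in the higher group, plus those said to be known earlier or chosen after their values were seen. Gene lists and tissue markers could not be applied without gene names, and no sequence is printed. DESeq2 1.42.0 was one alternative. Plots used matplotlib 3.10.9.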

Additional observations from a re-analysis of the deposited data

Results flagged for a closer look

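Effects of G that differed between T2 and later times, by a test of the difference in edgeR's quasi-likelihood model, were seen in 1969 genes. Among the named genes the difference, T2 minus the mean of T3 to T5 on the log2 scale, was -6.80 for GLYMA_04G124100, -5.39 for GLYMA_11G060500, -4.71 for GLYMA_17G187300, -3.91 for GLYMA_07G117100, -3.32 for GLYMA_01G081900 and -3.31 for GLYMA_20G068000. It was 3.25 for GLYMA_19G091800, 2.41 for GLYMA_12G060700 and 1.93 for GLYMA_15G007300. G T3 and G T5 lack the raised stretch of chromosome 13 that G T2 and G T4 carry, and its part in these differences was not tested. Against T4 alone GLYMA_07G117100 was at -1.14 (adjusted p = 0.669).

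The direct contrast of the transgenic names G and R at T2 differed in 3039 genes with TMM and in 32623 with total counts alone, where the median of all genes was 1.83 higher in G T2. Of the named genes, G T2 minus R T2 on the log2 scale was 2.36 for GLYMA_19G091800, -0.63 for GLYMA_01G081900 and -5.62 for GLYMA_13G021200 with TMM. With total counts alone these were 4.13, 1.19 and -3.55, so the direction of GLYMA_01G081900 turned.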

How the results depend on the processing

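Of 139 recomputed main values 115 stayed within 1.5 times, or on the same side of the threshold, and 24 moved. Most of these values are gene counts, which have no direction, and both transgene differences from Wt T2 kept theirs. Total-count scaling turned the difference of G T2 from R T2 to 1.43 for AtDGAT and 1.19 for GLYMA_01G081900. With each G T2 replicate left out, the AtWRI1 difference of G T2 from R T2 ran from -0.12 to 0.20. Total-count scaling moved the median of all genes by 0.29 on the log2 scale. It gave 919 called genes, 781 higher and 138 lower, 266 genes whose T2 effect differed from later times, 32623 genes between G T2 and R T2, 52 higher stretch genes, and 393 and 26 genes shared with field WD-1 rises and falls. The libraries compared alone gave 5984 called genes, 3048 higher and 2936 lower. Leaving out each replicate gave 2230 to 3139 called genes, 1290 to 1801 higher, 859 to 1338 lower, 1226 to 1602 for the T2 difference and 1799 to 2211 for G T2 against R T2. The causes were not tested.

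Deviations of same-numbered libraries correlated at 0.17, -0.095 and 0.201 across genes, and those of different-numbered libraries at -0.233 to 0.135. These values do not settle whether replicate numbers pair the libraries. With a replicate block 3684 genes were called, 2034 higher and 1650 lower, with 2075 genes for the T2 difference and 3365 for G T2 against R T2. DESeq2 called 3659. Without the R libraries, an alternative chosen after seeing the data like the T4 and stretch ones, 3801 were called. Of 400 recomputed values of single genes 385 kept their direction and side of the threshold. Against Wt T2, GLYMA_12G060700 passed with no filter (adjusted p = 0.0187) and in the libraries compared alone (0.00134). GLYMA_13G021200 passed in the libraries compared alone (0.0343) but not with no filter (0.0923). A count of 0 allows up to 0.149 to 0.184 CPM in the 6 libraries.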

Other observations

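On chromosome 13 a block of 81 tested genes, GLYMA_13G011300 to GLYMA_13G025800, which holds GLYMA_13G021200, varied between embryos of one group. It was found after the values were seen, from a running median of 25 genes. Its median log2 difference from the mean of the 12 Wt libraries was 1.99 in Wt T2 replicate 1, against -0.18 and -0.06 in replicates 2 and 3, and -0.57, -0.55 and -0.57 in the 3 G T2 libraries. In the R libraries it ran from -0.10 to 4.89, and in G T4 it was 2.17, 0.77 and -1.64. The median log2 fold change of G T2 against Wt T2 over the block was -1.59, with 76 of the 81 genes below 0, yet 4 were called lower and none higher in edgeR's test. Against Wt T2 replicates 2 and 3 alone the median was -0.40. The Wt value in this block therefore rests on replicate 1.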
